A study of Mus musculus with 15 samples.

Results

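Between embryonic days 13.5 and 14.5 (E13.5 and E14.5) the paired shelves of the mouse secondary palate turn from a vertical position beside the tongue to a horizontal one above it and meet in the midline. The RNA of palates collected on these 2 days was compared here. The members were the 6 libraries of these days among the 15 libraries of the series, and the comparison ran over 22151 of the 54232 genes in the count table, those with enough counts to be tested. All mice were wild type (WT), with no strain given in the labels. Each library held dissected palatal tissue pooled from 3 embryos, so the 3 libraries of a stage show the spread between pools and not between single embryos.

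A palatal shelf is a core of mesenchyme, largely descended from the cranial neural crest, under a sheet of oral and nasal epithelium. It grows by division of mesenchymal cells under the control of Hedgehog, Wnt, BMP and FGF signals that pass between epithelium and mesenchyme. Elevation draws on a matrix rich in hyaluronan, on contractile cells and on growth. After contact, the medial edge epithelium of the opposed shelves forms a seam that is later removed, and bone forms in the front of the palate.

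Depth was alike in the 6 libraries, at 63.7 to 69.0 M assigned counts. Levels are given as CPM, counts scaled to library size, and a detection floor of 3 counts lay at 0.0435 to 0.0471 CPM, which covers counting error only. Across genes the log2 levels of any pair of these libraries correlated at 0.957 to 0.990. All gene levels below include edgeR's TMM scaling factors. The labelled tissue was checked by its defining genes: 8 markers of palatal mesenchyme lay between 10.4 and 453 CPM and 7 markers of oral epithelium between 4.07 and 176 CPM in all 6 libraries.

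The pools also differed in tissue other than palate. The summed level of 41 neuron genes was 4740, 7310 and 2890 CPM in E13.5 replicates 1, 2 and 3 and 13500, 9820 and 6530 CPM in the E14.5 replicates. A list of 12 astroglia genes, chosen after values were seen, summed to 469, 689 and 244 CPM and then to 1540, 1190 and 760 CPM. Genes of the choroid plexus, the secretory tissue of the brain ventricles, summed to 1750 and 1090 CPM in E14.5 replicates 1 and 3 but to 206 CPM in replicate 2. The Hox clusters, which are used in the body behind the anterior head, summed to 717 CPM in E14.5 replicate 1 and to 13 to 261 CPM in the other 5 libraries. A set of 20 lens genes, also chosen after values were seen, reached 805 CPM in E13.5 replicate 2 and at most 12.9 CPM elsewhere. *Xist*, the RNA that silences an X chromosome in females, was at 1540 and 808 CPM in E13.5 replicates 1 and 2 and at 407 CPM in E14.5 replicate 2, and at most 1.87 CPM in the other 3 libraries, so the mix of sexes differed between pools. In such bulk samples, fewer cells of a type and less RNA per cell cannot be told apart.

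**Figure D1:**
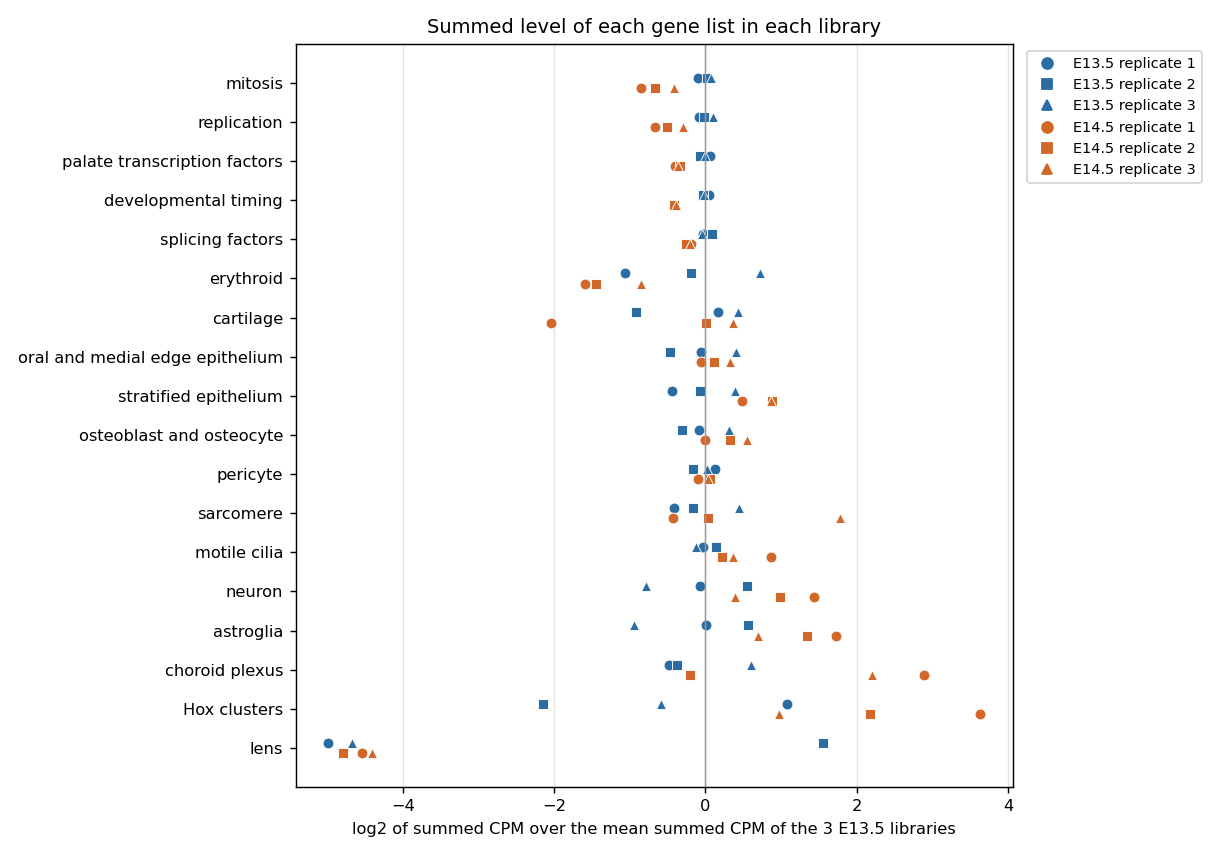
Summed CPM of the members of each named gene list in each library, as log2 of the ratio to the mean of the 3 E13.5 libraries; each point is 1 library, blue for E13.5 and orange for E14.5. The 3 E14.5 libraries lie below all E13.5 libraries for mitosis, replication, palate transcription factors, developmental timing and splicing factors, and the lens genes stand at 805 CPM in E13.5 replicate 2 alone.

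Of all tested genes, 2 passed an adjusted p of 0.05 in edgeR's quasi-likelihood test with Benjamini-Hochberg adjustment (0.00903%), both of them higher at E14.5. DESeq2 called 1000. *Higd1b*, a mitochondrial membrane protein of the hypoxia-induced domain family that marks pericytes, the cells wrapped around capillaries, lies on chr11:102835849-102838040. It had 2, 3 and 1 counts at E13.5 and 23, 25 and 28 counts at E14.5, or 0.0287, 0.0423 and 0.0149 CPM against 0.358, 0.378 and 0.393 CPM. The E14.5 libraries were tight and far above the E13.5 libraries, which stood at or below the detection floor. The ratio of summed counts per depth was 12.4, with a 95% exact interval of 5.43 to 34.8 that covers counting error only, and the fitted log2 fold change was 3.61 (SE 0.45, adjusted p = 0.0321 by edgeR).

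*Tekt5*, a tektin of the inner wall of motile cilia and flagella, lies on chr16:10357948-10395490. It was at 0.487, 0.465 and 0.386 CPM at E13.5 and at 3.79, 2.85 and 1.91 CPM at E14.5. All 3 later libraries were above all earlier ones and stood in the order of their neuron sums, and the log2 fold change was 2.67 (SE 0.32, adjusted p = 0.0321 by edgeR's quasi-likelihood test). Both calls were lost in edgeR when any 1 E13.5 library was left out, when E14.5 replicate 1 was left out (adjusted p = 0.117) and when replicate 2 was left out (adjusted p = 0.089), with fitted log2 fold changes of 3.33 to 3.97 for *Higd1b* and 2.41 to 2.89 for *Tekt5*. With the neuron sum as a covariate *Tekt5* was at 2.28 (adjusted p = 0.0258 by edgeR) and *Higd1b* at 3.60 (adjusted p = 0.0523). The order of the neuron sums at E14.5 is given for several genes below. How many of all tested genes follow it was not counted, and what it reflects was not tested. Among genes whose levels are given with it, *Gucy1b1*, *Cgref1*, *Smpd3* and *Bcan* also followed the neuron sums at E13.5. *Tekt5*, *Srsf12*, *Cldn5*, *Mmp9*, *H2-D1* and *Slc6a11* did not.

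Below that threshold the 2 stages still differed at many genes. A log2 fold change above 0 was found for 52.4% of tested genes and one below 0 for 47.4%, and 1921 genes reached at least 1 (8.67%) and 637 at most -1 (2.88%). An unadjusted p under 0.05 was reached by 2271 genes that were higher at E14.5 (10.3%) and 1267 that were lower (5.72%). In 3442 genes all 3 E14.5 libraries lay above all 3 E13.5 libraries (15.5%), and in 3036 all lay below (13.7%). The median log2 fold change of all tested genes was 0.02, with quartiles of -0.22 and 0.35. Of 54 gene lists, 9 had a median below the lower quartile and 13 a median above the upper one. None of the counts below rests on an adjusted call unless stated, so the genes are described as higher or lower in these libraries. Each list count below is to be read beside the shares of all tested genes given here.

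Genes of mitosis and of DNA replication were lower at E14.5. Of 50 genes of mitosis, all 50 had a log2 fold change below 0, in 48 the E14.5 libraries lay below every E13.5 library, and 39 had an unadjusted p under 0.05. The median was -0.65 against 0.02 for all genes. Their summed level was 4590, 4980 and 5160 CPM at E13.5 and 2730, 3100 and 3670 CPM at E14.5, a ratio of stage means of 0.646. Of 46 genes of DNA replication, all 46 were below 0, 38 did not overlap between stages and 36 had an unadjusted p under 0.05, with a median of -0.53. The replication sum was 3520, 3670 and 3990 CPM at E13.5 and 2350, 2630 and 3030 CPM at E14.5. No gene of either list passed the adjusted threshold in edgeR, whereas DESeq2 called 6 of mitosis and 7 of replication. The replication-dependent histones did not separate in sum, at 99.6, 128 and 99.6 CPM and then 129, 104 and 98.8 CPM. Of 42 tested, 35 were below 0, with a median of -0.45. In 11 every E14.5 library lay below, and 3 were lower at an unadjusted p under 0.05 in edgeR, beside 13.7% and 5.72% of all tested genes.

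*Mki67*, the Ki-67 protein of dividing cells, was at 464, 448 and 463 CPM at E13.5 and at 229, 279 and 297 CPM at E14.5. The E13.5 libraries agreed closely and the 2 sets were well apart, with a log2 fold change of -0.77 (SE 0.20, unadjusted p = 0.00208, edgeR adjusted p = 0.133). *Foxm1*, the transcription factor that drives the genes of mitosis, was at 88.8, 100 and 92.8 CPM and then at 50.4, 56.6 and 63.3 CPM. *Cenpa*, the histone that marks centromeres, was at 83.7, 83.9 and 95.5 CPM and then at 43.2, 51.7 and 59.3 CPM. Neither gene had overlapping stages. Within the replication list, *Rrm2*, the subunit of ribonucleotide reductase that limits the supply of DNA precursors, was at 102, 146 and 116 CPM and then at 63.0, 69.3 and 84.3 CPM. *E2f1*, which activates the genes of S phase, was at 34.3, 43.5 and 42.5 CPM and then at 23.9, 25.4 and 29.5 CPM. *Pold1*, the catalytic subunit of DNA polymerase delta, was at 88.1, 91.9 and 104 CPM and then at 56.2, 63.9 and 68.1 CPM. All 3 were lower at E14.5 in every library.

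The genes that set the entry to the cycle were mixed. Of 22 tested G1 cyclins and cycle inhibitors, 2 were higher and 3 lower at an unadjusted p under 0.05, with a median of -0.06; with 1 library left out, 0 to 1 were higher and 0 (without E14.5 replicate 1) to 5 (without E14.5 replicate 3) lower. *Ccnd1*, cyclin D1, was at 309, 312 and 324 CPM and then at 198, 206 and 270 CPM. *Cdkn1a*, the inhibitor p21, ran the other way, from 22.2, 23.5 and 36.6 CPM to 41.8, 37.2 and 58.7 CPM, so that its lowest E14.5 library stood just above its highest E13.5 library.

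The promoters of the division genes, taken as 250 bases before to 50 bases after each RefSeq start on GRCm38.p6, held the sequences by which such genes are commonly recognised. The DREAM and MuvB complexes bind the cell cycle homology region, searched as TTTGAA on both strands, the factor NF-Y binds CCAAT, and E2F factors bind the forms TTCCCGC and TTGGCGC, all on both strands. The promoters of 3 genes are shown, a marker of division, a centromere gene and a polymerase. They were those with the smallest unadjusted p by edgeR among list members whose window held the marked motifs. Their matches were thus fixed by the choice, and the shares over the lists follow below. Capitals mark TTTGAA and CCAAT in the first 2 and the E2F form in the last, each in either orientation.
Mki67: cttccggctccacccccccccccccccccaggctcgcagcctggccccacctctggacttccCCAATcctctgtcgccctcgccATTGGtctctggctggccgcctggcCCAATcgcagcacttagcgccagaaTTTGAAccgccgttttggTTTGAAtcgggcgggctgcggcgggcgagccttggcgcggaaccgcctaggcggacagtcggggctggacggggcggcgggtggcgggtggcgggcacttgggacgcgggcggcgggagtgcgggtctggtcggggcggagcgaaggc
Cenpa: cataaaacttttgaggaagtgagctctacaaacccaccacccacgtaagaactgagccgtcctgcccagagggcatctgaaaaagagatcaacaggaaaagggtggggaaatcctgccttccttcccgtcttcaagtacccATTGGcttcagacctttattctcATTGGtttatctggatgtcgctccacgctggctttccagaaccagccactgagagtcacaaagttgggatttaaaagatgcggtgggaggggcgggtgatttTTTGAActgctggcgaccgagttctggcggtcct
Pold1: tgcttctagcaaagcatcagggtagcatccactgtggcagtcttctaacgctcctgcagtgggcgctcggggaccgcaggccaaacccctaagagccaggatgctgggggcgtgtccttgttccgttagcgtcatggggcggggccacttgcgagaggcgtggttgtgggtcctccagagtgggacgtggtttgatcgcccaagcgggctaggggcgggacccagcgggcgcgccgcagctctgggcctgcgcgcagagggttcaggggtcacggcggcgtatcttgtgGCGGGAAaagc
The first lies on chr7:135716330-135716629 on the minus strand with 2 matches to TTTGAA and 3 to CCAAT, the second on chr5:30666636-30666935 on the plus strand with 1 and 2, and the last on chr7:44548766-44549065 on the minus strand with 1 E2F form.

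A promoter was in the table for 41 of the 50 mitosis genes. TTTGAA was found in 32 of these 41 (78.0%), against 7 of 38 replication promoters (18.4%), 12.7% of 13133 promoters of tested protein-coding genes and 18.1% of all 27025 promoters. An E2F form was found in 20 of 38 replication promoters (52.6%), against 7 of 41 mitosis promoters (17.1%), 11% of tested protein-coding genes and 6.93% of all promoters. CCAAT was found in 75.6% of mitosis and 57.9% of replication promoters, against 38.2% of tested protein-coding genes and 37.9% of all. The 2 lists, both lower at E14.5, thus differed in the letters their windows held. A match is a description of the window and not a shown binding site.

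**Figure D2:**
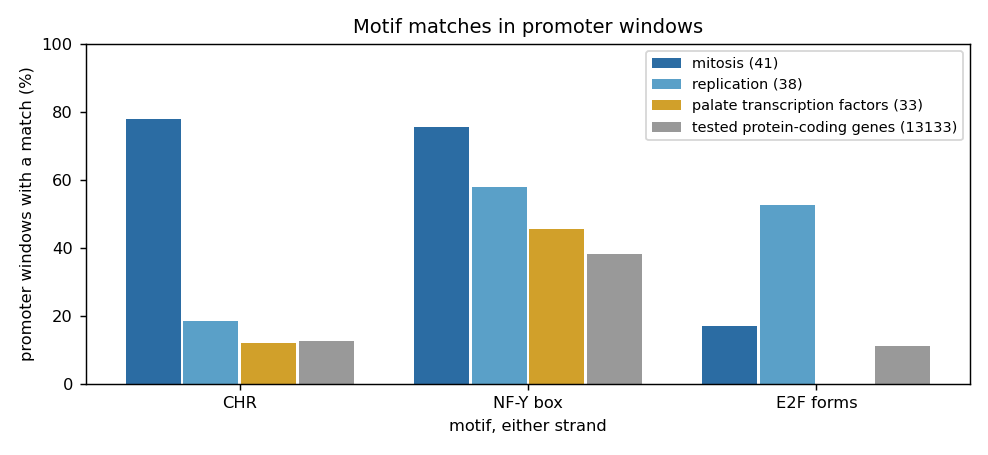
Share of 300-base promoter windows that hold each motif on either strand, in percent, for the named lists and for tested protein-coding genes. TTTGAA stands at 78.0% in mitosis and 18.4% in replication, and the E2F forms at 17.1% and 52.6%.

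The summed neuron level moved with the stages, and the level of dividing-cell genes was lower where it was higher among the E14.5 libraries. The median of the mitosis list was -0.402 with the neuron sum as a covariate in the fit, with 8 genes at an unadjusted p under 0.05, and that of the replication list was -0.365, with 10. The counts of 39 and 36 became 4 and 6 with neither E13.5 replicate 2 nor E14.5 replicate 1, the library of each stage with the highest neuron sum. Leaving out E13.5 replicate 2 gave 24 and 26, leaving out E13.5 replicate 3 gave 18 and 14, leaving out E14.5 replicate 1 gave 10 and 10, and leaving out E14.5 replicate 2 gave 20 and 20, while the medians with 1 library left out stayed between -0.79 and -0.42. The part of other tissue in the shift was not tested beyond these values.

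**Figure D3:**
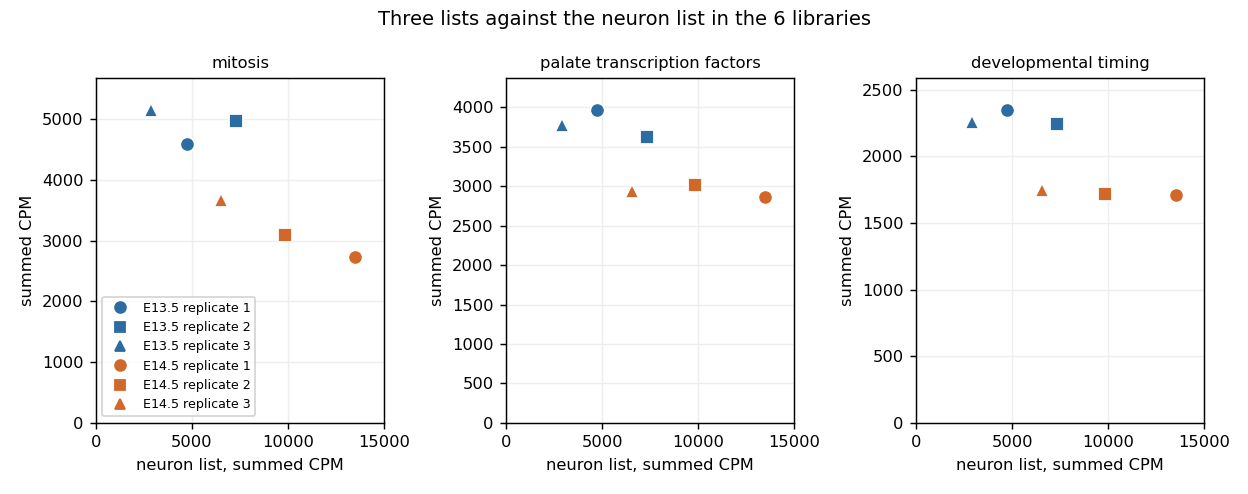
Summed CPM of the mitosis, palate transcription factor and developmental timing lists (vertical axes) against the summed CPM of the neuron list (horizontal axes) in the 6 libraries, blue for E13.5 and orange for E14.5. The neuron sums run from 2890 to 7310 CPM at E13.5 and from 6530 to 13500 CPM at E14.5, and in each panel the E14.5 points lie below the E13.5 points.

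Transcription factors that pattern the palate were also lower. Of 56 factors, 47 had a log2 fold change below 0, 14 did not overlap between stages, all in that direction, and 13 had an unadjusted p under 0.05, none of them higher. The median was -0.57. Their sum was 3970, 3620 and 3780 CPM at E13.5 and 2860, 3010 and 2940 CPM at E14.5, so that the highest E14.5 pool stood well below the lowest E13.5 pool. Leaving out E13.5 replicate 1 took the count of 13 to 5, E13.5 replicate 3 to 3, E14.5 replicate 1 to 2 and E14.5 replicate 2 to 7, and the median ranged from -0.80 to -0.36. With the neuron sum as a covariate the count was 5 and the median -0.34, with 17 members above 0.

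*Prrx1*, a homeobox factor of craniofacial mesenchyme, was at 385, 289 and 453 CPM and then at 143, 221 and 294 CPM. Its highest E14.5 library just passed its lowest E13.5 library. *Osr2*, a zinc-finger factor required for shelf growth, was at 68, 49.9 and 73.0 CPM and then at 27.8, 36.6 and 48.7 CPM, with no overlap (log2 fold change -0.76, SE 0.33, unadjusted p = 0.0388). *Tbx22*, a T-box factor whose loss causes X-linked cleft palate, was at 24.7, 16.7 and 16.7 CPM and then at 6.32, 7.95 and 8.24 CPM, again with no overlap, although its unadjusted p was 0.0665. *Dlx6*, a distal-less factor of the jaw, was at 17.1, 15 and 24.8 CPM and then at 6.71, 5.25 and 11.6 CPM. *Dlx1* was at 55.1, 120 and 40.9 CPM and then at 15.5, 25.2 and 22.4 CPM. Its highest value was in E13.5 replicate 2, the library in which a list of 22 forebrain and hypothalamus genes summed to 616 CPM against 151 to 413 CPM in the others, and its log2 fold change of -1.77 became -1.19 without that library.

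Other well-known palate factors overlapped. *Pax9*, a paired-box factor required for palate and teeth, was at 94.2, 38.0 and 69.4 CPM and then at 31.7, 51.2 and 50.7 CPM. The spread at E13.5 spanned all of the E14.5 values but 1. *Barx1*, a homeobox factor of posterior palate and molars, was at 106, 46.1 and 79.4 CPM and then at 34.0, 59.2 and 52.9 CPM. *Msx1*, the homeobox factor of the anterior palate, was at 70.7, 46.7 and 111 CPM and then at 51.5, 49.9 and 54.0 CPM. *Shox2*, another anterior factor, was at 73.1, 55.5 and 59.3 CPM and then at 95.6, 79.5 and 58.6 CPM. Of these 4 factors it alone had a higher mean at E14.5.

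The signalling pathways of the shelves had medians nearer to 0. In the Hedgehog pathway, in which a secreted ligand relieves the receptor Smoothened and acts through Gli factors, 2 of 15 genes had an unadjusted p under 0.05, both lower, and the median was -0.30. The 2 became 0 without E14.5 replicate 1 or with the neuron sum as a covariate, 1 without E13.5 replicate 3 or E14.5 replicate 2, and 5 without E14.5 replicate 3. *Shh*, the ligand made by the oral epithelium, was at 7.20, 7.73 and 4.07 CPM and then at 6.64, 8.51 and 5.74 CPM, fully overlapping. *Ptch1*, the receptor and a target of the pathway, overlapped too, at 195, 130 and 141 CPM and then 158, 185 and 129 CPM. *Gli3*, a factor that acts mainly as a repressor, did not overlap, at 111, 106 and 106 CPM and then 67.4, 70.2 and 73.4 CPM. *Gli2*, the main activator, was at 78.1, 66.4 and 87.8 CPM and then at 41.1, 58.6 and 53.8 CPM. Ligand and receptor thus overlapped between stages while both Gli factors were lower in every E14.5 library.

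Among 18 Wnt ligands none reached an unadjusted p of 0.05 and the median was 0.04. *Wnt5a*, a ligand that directs cell movement, was at 93.5, 93.1 and 168 CPM and then at 87.6, 110 and 111 CPM. *Axin2*, a feedback target of Wnt signalling, was at 62.1, 54.7 and 82.0 CPM and then at 70.3, 59.4 and 55.2 CPM. *Lgr5*, a receptor for R-spondins that raises Wnt signalling, was the 1 feedback target of 15 with an unadjusted p under 0.05, at 57.1, 25.1 and 43.3 CPM and then 14.6, 25.8 and 24.7 CPM. *Sost*, the secreted Wnt antagonist sclerostin named in the study's aims, was low in all libraries, at 0.272, 0.282 and 0.713 CPM and then 0.685, 0.560 and 0.576 CPM. Of 33 genes of the TGF-beta and BMP pathways, 2 had an unadjusted p under 0.05, both lower, beside 5.72% of all tested genes that were lower. The 2 became 0 without E13.5 replicate 1 or E13.5 replicate 3, 1 without E14.5 replicate 1 or E14.5 replicate 2, 4 without E13.5 replicate 2 and 5 without E14.5 replicate 3. With the neuron sum as a covariate 3 were higher and 1 lower. The 2 were *Bmp4*, at 30.2, 18.8 and 39.0 CPM and then 12.4, 20.7 and 24.0 CPM, and *Ltbp1*, which holds latent TGF-beta in the matrix. *Ephb3*, a receptor for ephrins that sets boundaries between cells, had the smallest unadjusted p of the ephrin and PDGF list. It was at 160, 131 and 168 CPM and then at 82.7, 108 and 115 CPM, with no overlap (log2 fold change -0.58, SE 0.13, edgeR adjusted p = 0.111).

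Genes of developmental timing, many of them kept high in early embryos and later silenced by the microRNA let-7, formed a tight list. Their sum was 2350, 2240 and 2260 CPM at E13.5 and 1710, 1720 and 1750 CPM at E14.5. The lowest E13.5 pool stood far above the highest E14.5 pool, and the spread within a stage was small. Of 19 tested members, 17 were below 0, 10 did not overlap and 6 had an unadjusted p under 0.05, all lower, with a median of -0.39. Without E14.5 replicate 1 the 6 became 3, as they did with the neuron sum as a covariate, and the median ranged from -0.49 to -0.29 as each library was left out. The sum went on to 1240, 1360 and 1380 CPM at E15.5.

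*Igf2bp1*, an RNA-binding protein of the fetal growth programme, was at 139, 126 and 130 CPM and then at 65.3, 78.0 and 79.9 CPM. With no overlap and small spread its log2 fold change was -0.83 (SE 0.15, edgeR adjusted p = 0.0755). Its relatives were lower as well, *Igf2bp2* at 182, 154 and 185 CPM and then 106, 130 and 145 CPM, and *Igf2bp3* at 127, 121 and 127 CPM and then 83.1, 85.3 and 102 CPM. *Hmga2*, a chromatin protein of proliferating embryonic cells, was at 299, 201 and 326 CPM and then at 73.4, 118 and 137 CPM, a log2 fold change of -1.33 (SE 0.51, unadjusted p = 0.0223). None of these 4 genes had an E14.5 library as high as its lowest E13.5 library.

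These 4 genes carry matches to let-7, whose 8 mature forms in RefSeq share the seed GAGGUAG. MicroRNAs were not measured here. One mature sequence and 1 site in the 3′ UTR of each gene are shown, with the seed and the letters that pair with it in capitals, and the sites are on the minus strand of GRCm38 in GENCODE M21.
let-7a-5p: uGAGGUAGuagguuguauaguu
Igf2bp1: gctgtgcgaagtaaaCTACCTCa
Igf2bp2: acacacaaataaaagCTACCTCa
Igf2bp3: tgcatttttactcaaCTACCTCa
Hmga2: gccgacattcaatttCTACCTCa
The sites lie on chr11:95961778-95961800, chr16:22059473-22059495, chr6:49086787-49086809 and chr10:120364224-120364246. *Igf2bp1* and *Hmga2* have 4 matches each in their longest 3′ UTR, and *Igf2bp2* and *Igf2bp3* have 1. Over the list, CTACCTC was found on the sense strand in the longest 3′ UTR of 12 of 19 members (63.2%), against 1702 of 16865 tested protein-coding genes (10.1%). The list was chosen in part for known let-7 targets and its UTRs were longer, with a median of 2775 against 1115 bases, so this share is a description.

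Most splicing factors were lower, by a small amount in the median. Of 31, 28 were below 0 and in 18 every E14.5 library lay below, with a median of -0.22 and sums of 11800, 12800 and 11700 CPM and then 10600, 10100 and 10500 CPM. Members ran from -0.55 to 0.77, and the median stood close to the lower quartile of all tested genes. At an unadjusted p under 0.05 in edgeR 6 were lower and 1 higher, beside 5.72% and 10.3% of all tested genes. With 1 library left out 3 to 6 were lower. With the neuron sum as a covariate 2 were lower and the median was -0.119. *Srsf5*, a serine- and arginine-rich factor that selects exons, was at 254, 253 and 256 CPM and then at 162, 185 and 174 CPM, the smallest unadjusted p of its list (log2 fold change -0.55, SE 0.11, edgeR adjusted p = 0.0886). *Srsf6* was at 491, 472 and 488 CPM and then at 334, 372 and 367 CPM. The E13.5 libraries of both genes agreed to within a few percent, and both sets stood apart. An exception was *Srsf12*, a factor found mainly in neural tissue and testis, at 13.9, 12.6 and 12.4 CPM and then 26.1, 21.9 and 18.7 CPM. Its E14.5 values followed the order of the neuron sums. Of 76 cytosolic ribosomal proteins, 73 were below 0 but none reached an unadjusted p of 0.05 in edgeR, and the median was -0.15. Without E14.5 replicate 3, 10 were lower at that p, and without E13.5 replicate 1, 2 were. Of 76 genes of oxidative phosphorylation, 30 lay above in every E14.5 library, none reached an unadjusted p of 0.05, and the median was 0.11.

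Red blood cell genes were lower, and the mix of globins differed. The erythroid list of 30 tested genes had a median of -0.97, with 16 lower and 2 higher at an unadjusted p under 0.05, and its sums were 1760, 3210 and 6030 CPM and then 1220, 1350 and 2030 CPM. The summed levels overlapped, and the count of 16 was 10 when E13.5 replicate 3, E14.5 replicate 1 or E14.5 replicate 2 was left out. The median was -0.501 without E13.5 replicate 3 and -0.51 with the neuron sum as a covariate. *Slc4a1*, the anion exchanger of the red cell membrane, was at 19.2, 31.0 and 48.6 CPM and then at 5.16, 6.81 and 9.56 CPM. *Hbb-bh1*, an embryonic beta-like globin, was at 21.8, 34.4 and 50.0 CPM and then at 6.4, 5.09 and 9.02 CPM (log2 fold change -2.37, SE 0.35), and with an edgeR adjusted p of 0.0587 it was the nearest to the threshold of all genes not called. *Hbb-y*, the other embryonic beta-like globin, was at 886, 1740 and 3160 CPM and then at 355, 459 and 658 CPM.

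The share of embryonic forms among globin counts was taken next, since a ratio within the globins does not scale with the amount of blood in a pool. The 2 embryonic genes made 86.2%, 82.1% and 75.8% of beta-type globin counts at E13.5 and 58.0%, 61.0% and 54.5% at E14.5. The stages did not overlap, and the means were 81.4 ± 5.26% and 57.8 ± 3.22% (SD, n = 3), a difference of -23.5 percentage points. An exact two-sided permutation test gave p = 0.1, the smallest that 3 against 3 libraries allow. *Hba-x*, the embryonic alpha-type gene, made 28.1 ± 4.61% and then 17.2 ± 1.56% of alpha-type counts (exact permutation p = 0.1, again the smallest possible). At E15.5 the embryonic beta share was 1.23%, 0.542% and 0.561%. The adult genes of each chain are near-identical copies, which enter here only as sums.

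**Figure D4:**
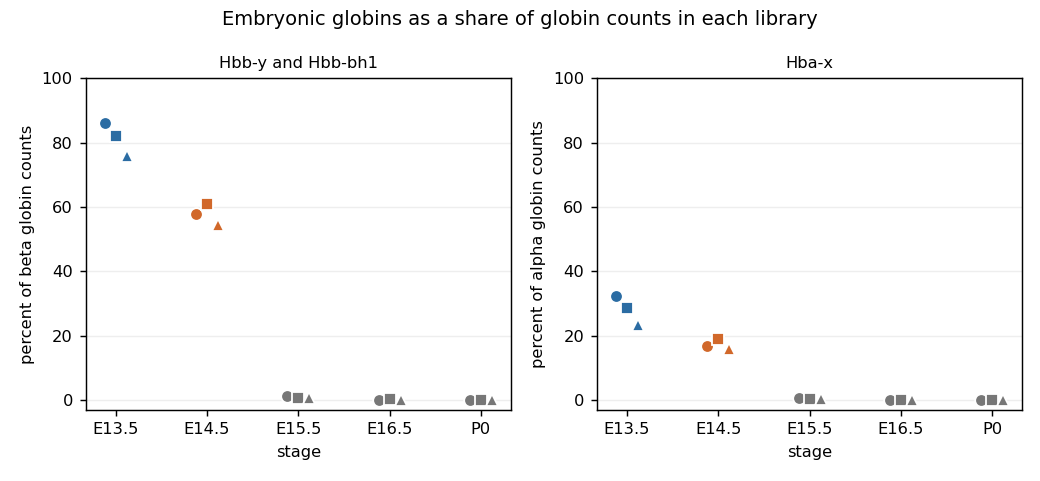
Embryonic globin counts as a percentage of all globin counts of the same chain (vertical axis) in each library by stage; each point is 1 library. The beta share was 75.8% to 86.2% at E13.5, 54.5% to 61.0% at E14.5 and at most 1.23% at E15.5.

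Genes of layered, keratin-rich epithelium were higher at E14.5. Of 26 tested genes of stratified epithelium, 13 lay above in every E14.5 library and none below, beside 15.5% and 13.7% of all tested genes. Only 3 had an unadjusted p under 0.05, all higher, beside 10.3% of all tested genes. The median was 0.94, and the sums were 19.7, 25.4 and 35.1 CPM and then 37.4, 49.0 and 48.9 CPM. Without E14.5 replicate 3 the 3 became 1. With the neuron sum as a covariate they became 8, with a median of 1.87. Levels were low, and by E15.5 the sums were 131, 334 and 988 CPM. *Krt4*, a keratin of non-cornified oral lining, was at 0.401, 0.423 and 0.817 CPM and then at 1.12, 2.06 and 6.36 CPM. *Krt6a*, a keratin of the periderm and of activated epithelium, was at 1.07, 1.13 and 2.11 CPM and then at 4.17, 4.51 and 4.06 CPM. The 2 keratins did not overlap between stages, and neither passed the adjusted threshold.

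Of the 49 genes of oral and medial edge epithelium, 1 was higher and 1 lower at an unadjusted p under 0.05, and the median was 0.14. This depended on the fit: with the neuron sum as a covariate 27 were higher and none lower in edgeR, with a median of 0.90. The median was -0.10 without E13.5 replicate 2, and 4 were higher without E13.5 replicate 3. *Tgfb3*, the growth factor of the medial edge that is required for fusion, was at 77.5, 54.8 and 94.3 CPM and then at 34.5, 71.4 and 95 CPM. The 2 stages overlapped almost fully. *Snai2*, a repressor of cell adhesion genes present in mesenchyme and seam, was at 37.1, 29.0 and 46.9 CPM and then at 13.4, 25.3 and 29.6 CPM.

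Genes of motile cilia, found on the nasal lining and on the lining of brain ventricles, were higher. Of 38 tested, 33 were above 0, 13 lay above in every E14.5 library and 19 had an unadjusted p under 0.05, with a median of 1.13. The sums were 213, 241 and 201 CPM and then 398, 255 and 280 CPM. The largest was E14.5 replicate 1, the library with the highest neuron and choroid plexus sums, and without it the count was 8 in place of 19 and the median was 0.65. *Foxj1*, the factor that switches on the motile cilium programme, was at 8.81, 13 and 9.55 CPM and then at 47.2, 18.3 and 26.6 CPM. *Spag6l*, a protein of the central pair of the cilium, was at 1.42, 2.08 and 1.1 CPM and then at 10.1, 4.40 and 4.72 CPM. *Bpifa1*, a secreted defence protein of nasal epithelium, was at 0.487, 0.254 and 0.461 CPM and then at 7.34, 4.34 and 8.19 CPM, with every E14.5 library above every E13.5 library. Its log2 fold change was 4.04 (SE 1.06, edgeR adjusted p = 0.137). The share of nasal and of ventricle lining in the cilium genes was not tested.

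In the vessels, some pericyte genes were higher. Of 17 pericyte genes, 6, *Higd1b* among them, were higher and 1 was lower at an unadjusted p under 0.05, and 8 lay above in every E14.5 library. The median was 0.39, while that of 31 endothelial genes was -0.02, with 1 higher and 1 lower. The pericyte sums of 934, 763 and 866 CPM and then 801, 890 and 873 CPM overlapped, and the genes named here had low levels. *Gucy1b1*, a subunit of the nitric oxide receptor of contractile vessel cells, was at 14.5, 19.3 and 11.8 CPM and then at 39.9, 31.6 and 27.1 CPM, at E14.5 in the order of the neuron sums. *Kcnj8*, a potassium channel subunit of pericytes, was at 6.82, 6.85 and 4.37 CPM and then at 9.41, 10.1 and 12.9 CPM. *Ndufa4l2*, a hypoxia-regulated mitochondrial protein of pericytes, was at 3.58, 2.42 and 2.48 CPM and then at 4.66, 6.21 and 5.58 CPM. None of these 3 overlapped between the stages. *Cldn5*, the tight junction protein of endothelium, was at 25.7, 22.3 and 23.3 CPM and then at 41.3, 40.1 and 29.3 CPM, at E14.5 also in that order. The endothelial factor *Erg* ran the other way, at 37.1, 27.1 and 41.2 CPM and then at 10.7, 22.1 and 26.4 CPM.

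Bone genes were in part higher. Of 29 osteoblast and osteocyte genes, 7 lay above in every E14.5 library, 5 had an unadjusted p under 0.05 and were higher, and 1 was lower, with a median of 0.41. The 5 became 9 without E13.5 replicate 3 and 8 without E14.5 replicate 1. *Ibsp*, bone sialoprotein, which nucleates mineral, was at 7.64, 4.47 and 28.6 CPM and then at 69.7, 43.8 and 88.6 CPM. *Cgref1*, a calcium-binding growth regulator, was at 6.35, 6.79 and 6.06 CPM and then at 22.3, 20.5 and 15.7 CPM, a log2 fold change of 1.61 (SE 0.26, edgeR adjusted p = 0.0637). *Smpd3*, a sphingomyelinase needed for mineralisation that neurons also express, was at 47.4, 68.1 and 35.0 CPM and then at 172, 115 and 88.6 CPM. These 3 genes did not overlap, and the last 2 followed the order of the neuron sums at E14.5. *Dlx5*, the bone and jaw homeobox factor, was the member that was lower, at 28.2, 32.5 and 38.1 CPM and then 12, 13.3 and 19.5 CPM.

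*Mmp9*, the gelatinase of osteoclasts and vessel invasion, was at 14.7, 13.6 and 12.6 CPM and then at 42.1, 40.5 and 34.4 CPM, at E14.5 in the order of the neuron sums. It was 1 of 4 osteoclast genes, of 12, that were higher at an unadjusted p under 0.05 (log2 fold change 1.51, SE 0.40, edgeR adjusted p = 0.137). Of 27 resident macrophage genes, 5 were higher and none lower at an unadjusted p under 0.05 in edgeR, beside 10.3% of all tested genes that were higher, and the median was 0.37. The 5 became 12 without E13.5 replicate 3, 8 with E14.5 replicate 1 left out and 3 without E13.5 replicate 2, E14.5 replicate 2 or E14.5 replicate 3. The 4 osteoclast genes became 2 without E13.5 replicate 1, E13.5 replicate 2 or E14.5 replicate 3. None of that list was lower at that p with all libraries, but 3 were without E13.5 replicate 2 and 2 without E14.5 replicate 3. The osteoclast sums of 131, 99.2 and 147 CPM and then 113, 140 and 155 CPM overlapped. *Ctss*, the lysosomal protease cathepsin S, was at 8.40, 7.10 and 8.54 CPM and then at 10.2, 11.2 and 14.1 CPM. *H2-D1*, a class I antigen-presenting molecule, was at 15.6, 16.2 and 15.7 CPM and then at 32.1, 26.3 and 23.5 CPM. Neither overlapped between stages, and at E14.5 *H2-D1* followed the order of the neuron sums.

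Matrix genes showed no common direction. Of 44 genes of the interstitial matrix, 4 were higher and 2 lower at an unadjusted p under 0.05, beside 10.3% and 5.72% of all tested genes. The list median was -0.05. Of 25 genes of hyaluronan and provisional matrix, 3 were higher and 4 lower, with a median of -0.16. With 1 library left out these counts ranged from 2 to 6 and 1 to 6 in the first list and from 2 to 4 and 1 to 7 in the second, with the fewest lower genes when E14.5 replicate 1, among others, was left out and the most without E14.5 replicate 3. *Bcan*, also a member of the astroglia list, had the smallest unadjusted p of the second list in edgeR and was higher. It was at 4.33, 5.38 and 1.35 CPM and then at 49.2, 39.2 and 18.3 CPM, at E14.5 in the order of the neuron sums. *Has2*, the main hyaluronan synthase of the shelves, was at 40.8, 27.9 and 42.5 CPM and then at 23.1, 29.7 and 36.2 CPM, overlapping. *Ptx3*, which cross-links hyaluronan, was at 27.3, 38.3 and 34.7 CPM and then at 9.41, 14.1 and 27.1 CPM, just without overlap. *Thbs1*, thrombospondin 1, a matrix protein that can activate latent TGF-beta, was at 275, 216 and 329 CPM and then at 84.8, 153 and 180 CPM. *Omd*, osteomodulin of forming bone, ran the other way, at 2.05, 0.733 and 2.64 CPM and then 3.93, 5.69 and 5.90 CPM, and so did *Prelp*, a small proteoglycan of basement membranes, at 8.94, 7.23 and 10.2 CPM and then 21.8, 19.5 and 20.2 CPM. Cartilage genes did not separate, with sums of 4100, 1920 and 4910 CPM and then 885, 3670 and 4700 CPM. Sarcomere genes had a median of 0.89, which was -0.06 without E14.5 replicate 3, whose sum of 2780 CPM stood far above the 601 to 1100 CPM of the others.

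Neuron genes were mostly higher at E14.5. Of 41, 34 had a log2 fold change above 0 and 7 below, 3 of them at -1 or less. In 2 every E14.5 library lay below every E13.5 library. At an unadjusted p under 0.05 in edgeR 16 were higher and none lower, and the median was 0.97. The 16 became 10 without E13.5 replicate 1 and 5 without E13.5 replicate 3, each with 2 lower. Without E14.5 replicate 1 they became 5. Among protein-coding genes with an unadjusted p under 0.05, no overlap between stages and at least 10 CPM at E14.5, the 12 largest differences upward were *Grm5*, *Htr2c*, *Slc6a11*, *Bcan*, *Slc4a10*, *Grm3*, *Slco1c1*, *Sncb*, *Ptgds*, *Rit2*, *Aldoc* and *Kcnk9*, with log2 fold changes of 2.57 to 3.35 and edgeR adjusted p of 0.0637 to 0.204. None of the 12 was in the neuron or choroid plexus list, while *Slc6a11*, *Bcan* and *Aldoc* were in the astroglia list chosen after values were seen. The lists are not complete, so absence from a list does not tell the tissue. At E14.5 *Htr2c*, *Slc4a10*, *Slco1c1* and *Ptgds* stood in the order of the choroid plexus sums and the rest in that of the neuron sums. At E13.5 *Grm5*, *Bcan*, *Grm3*, *Sncb* and *Rit2* kept their order and the others did not. The source of the 12 was not tested. *Slc6a11*, a GABA transporter of astroglia, was at 8.76, 6.75 and 1.57 CPM and then at 82.6, 58.8 and 31.6 CPM, in the order of the neuron sums at E14.5. *Ttr*, the thyroid hormone carrier made by choroid plexus, was at 3.44, 2.82 and 88.4 CPM and then at 1220, 8.64 and 673 CPM. It is itself a member of the choroid plexus list and made up most of the list's sums of 1750 and 1090 CPM in E14.5 replicates 1 and 3.

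Peripheral nerve gave a more even picture. The 20 Schwann cell genes summed to 564, 531 and 584 CPM and then to 732, 798 and 698 CPM, without overlap and without the order of the neuron sums, although their median of 0.24 turned to -0.20 with the neuron sum as a covariate and to -0.01 without E14.5 replicate 3. That median lay within the quartiles of all tested genes. Of the 20, 3 were higher and none lower at an unadjusted p under 0.05 in edgeR, beside 10.3% and 5.72% of all tested genes. *Egr2*, the factor of myelinating Schwann cells and also a member of the list of immediate early genes, was at 1.33, 0.662 and 0.995 CPM. At E14.5 it was at 3.43, 3.66 and 3.67 CPM. The 3 E14.5 pools were nearly equal, and the log2 fold change was 1.84 (SE 0.32, edgeR adjusted p = 0.0653). *Cryaa*, alpha A crystallin of the lens, had the largest difference downward, from 0.158, 282 and 0.253 CPM to 0.125, 0.106 and 0.126 CPM, and it rested on E13.5 replicate 2 alone: its log2 fold change of -9.60 became -0.77 without that library. *Cryba1*, a beta crystallin of the lens, had the same pattern, with -7.97 becoming -1.42.

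The order of genes by abundance was then compared, with levels divided by transcript length and ranks taken over 21983 protein-coding genes by stage mean. Of the 500 most abundant genes, 58 at E14.5 had not been among the 500 at E13.5. Splicing factors held 16 of those places at E13.5 and 12 at E14.5, and neuron genes 6 and then 10. The median rank of mitosis genes went from 3639 to 6019, of replication genes from 4170.5 to 5832, of palate transcription factors from 5159 to 7507 and of timing genes from 4749 to 6842. Neuron genes went from 5949 to 3985, and motile cilium genes from 14144.5 to 13100.5, so the cilium genes remained in the lower part of the order. Among the genes within the top 2000 at either stage, the largest climbs without overlap were those of *Aldoc* (8375 to 1690), *Ibsp* (7359 to 1489), *Nap1l5* (7603 to 1899), *Fabp3* (5997 to 1599), *Camk2n2* (5851 to 1644), *Syt4* (4911 to 879), *Scn3b* (5667 to 1629) and *Dusp26* (5757 to 1884). Of these 8, *Ibsp* is a member of the osteoblast list, *Syt4* of the neuron list and *Aldoc* of the glycolysis and astroglia lists. The largest drops apart from *Cryaa* were those of *Hbb-bh1* (610 to 5145), *Hmga2* (1009 to 3559), *Pimreg* (1965 to 3731), *Cdca7* (1625 to 3283), *Sox9* (1910 to 3485), *Kif11* (1584 to 3106) and *Kif20a* (1591 to 3066). Of these 7, *Pimreg*, *Cdca7*, *Kif11* and *Kif20a* act in the division cycle, *Kif11* as the motor that separates spindle poles.

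**Figure D5:**
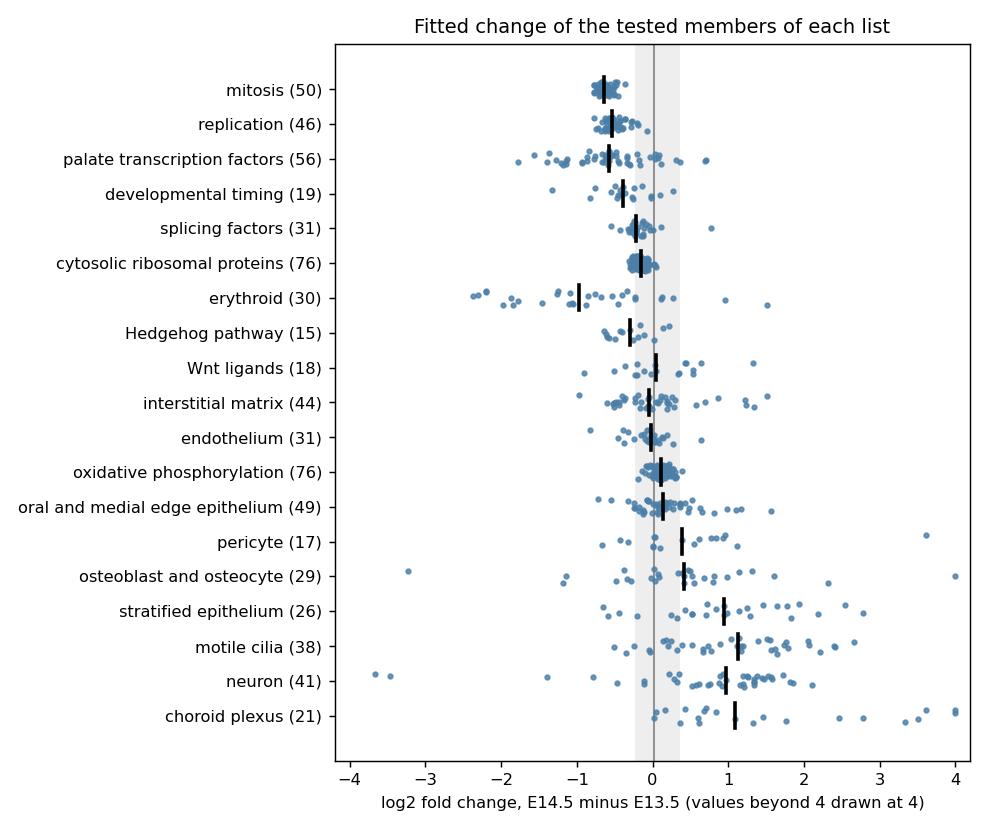
Fitted log2 fold change (E14.5 minus E13.5) of each tested gene of the named lists; points are genes, black bars are list medians, and the grey band spans the quartiles of all tested genes, -0.22 to 0.35. All 50 mitosis genes and all 46 replication genes lie below 0, whereas Wnt ligands, endothelium and interstitial matrix centre within the band.

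At the next stages the lists that were lower at E14.5 stood as follows. The mitosis sum was 3290, 3410 and 3770 CPM at E15.5, which overlaps the E14.5 values, and 1880, 2310 and 3080 CPM at E16.5. The sum of palate transcription factors was 2180, 2440 and 2620 CPM at E15.5 and 1240, 1710 and 2190 CPM at E16.5, each E15.5 library being below every E14.5 library. Motile cilium genes summed to 709, 1360 and 1300 CPM at E15.5, above every E14.5 library. These values are given beside the comparison and were not tested.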

How the data were processed

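Bulk RNA sequencing of 15 wild-type palate libraries at 5 stages was used, of which the 6 of E13.5 and E14.5 were compared. The deposited values are raw counts per gene. Per the file headers, featureCounts v2.0.1 counted read pairs on the reverse strand of GENCODE M18. The submitters' processing notes name cutadapt 3.4, HISAT2 2.2.1, SAMtools 1.12 and the build mm10. Total counts of 63.7 to 69.0 M per library set the detection floor of 3 counts.

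Stages came from the labels. Genes were filtered with filterByExpr (minimum count 10), normalized by TMM and modelled with edgeR 4.0.16 under R 4.3.3. The model held a term for each of the 5 stages of the 15 libraries. Spread was estimated for each gene over all 15 libraries and moderated across genes (common biological coefficient of variation 0.332). E14.5 was tested against E13.5 by quasi-likelihood with Benjamini-Hochberg adjustment over the 22151 genes and a threshold of 0.05. The SE of a fold change is its size over the root of its F value. The labels do not say that pools came from separate litters, so p values measure the spread between these pools. Counts of replicate libraries differed by a chi-square of 65.6 to 222 per degree of freedom, so none was a repeat of another. Scripts were tested on simulated data.

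The members and the 54 gene lists were chosen with earlier results of these data known. A list is described by its counts and its median beside all tested genes, with no set test. Single genes were named by these rules: an adjusted p under 0.05, the 12 largest differences in each direction (protein-coding, unadjusted p under 0.05, no overlap, at least 10 CPM), the 4 smallest p of each list (at least 1 CPM), the 8 largest rank shifts in each direction within the top 2000, and a set of known palate genes, with *Ttr*, *Xist* and 2 other genes of other tissue. The text gives a part of those. Ranks used counts per length.

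Symbols and 3′ UTRs came from GENCODE M21, promoters and miRNAs from RefSeq. The alternatives were DESeq2 1.42.0, other scalings and filters, a robust fit, the replicate number as a block, only the 6 libraries, and leaving out each library. A neuron covariate, a fit without the library of each stage with the highest neuron sum, and the globin share were added after seeing the data.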

Additional observations from a re-analysis of the deposited data

How the results depend on the processing

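The number of genes past the adjusted threshold, 2 in edgeR's quasi-likelihood test, depended on the processing. It was 1000 with DESeq2, 1 with a mean of at least 1 CPM, 6 with no filter on low counts, 0 with only the 6 libraries, 5 with the neuron sum as a covariate, 0 with neither E13.5 replicate 2 nor E14.5 replicate 1, and 0 to 28 with 1 library left out, highest without E14.5 replicate 3; the cause was not tested. With the replicate number as a block it was 135. The labels do not say that a number marks a shared litter or day, and deviations of same-numbered libraries correlated at 0.0611, -0.0452 and 0.548, so the numbers were not taken as pairs.

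The 2271 genes higher at an unadjusted p under 0.05 became 1285 with neither of those libraries and 1102 to 2586 with 1 left out. The 1267 lower became 2578 with only the 6 libraries, 762 with the covariate, 522 with neither of those libraries and 609 to 1310 with 1 left out.

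With the neuron sum as a covariate the medians were -0.365 for replication, -0.402 for mitosis, 0.90 for oral and medial edge epithelium, 1.87 for stratified epithelium, -0.51 for erythroid, 0.36 for neuron and -0.119 for splicing factors, which was -0.294 under upper-quartile normalization. With 1 library left out they ranged from 0.646 to 1.32 for motile cilia, -1.33 to -0.501 for erythroid and 0.807 to 1.60 for neuron. The covariate is the sum of the neuron list itself, so the neuron median of 0.36 under it is no check on that list. Of 864 pairs of a list and an alternative, 60 differed in sign from the value given; none was of replication, mitosis, palate transcription factors, timing, splicing, erythroid, neuron or cilium genes.

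Of 93 named genes, 6 changed sign under some alternative, none of them called. With the covariate *Msx1* was at 0.78, *Wnt5a* at 0.45 and *Axin2* at 0.25. *Ptch1* was at -0.02 with a mean of at least 1 CPM, -0.03 with only the 6 libraries, -0.06 with upper-quartile normalization and -0.09 with neither of those libraries. With 1 library left out the ranges were -0.10 to 0.31 for *Shh*, -0.11 to 0.22 for *Ptch1*, -0.34 to 0.14 for *Wnt5a*, -0.22 to 0.08 for *Axin2* and -0.51 to 0.14 for *Tgfb3*. Depth limited low genes such as *Higd1b*, with 1 to 3 counts at E13.5.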
